A study of Mus musculus with 12 samples.

Results

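The 10 genes described here encode cell-junction proteins and regulators of the epithelial-mesenchymal transition (EMT). They are the cadherin genes Cdh1 and Cdh2, the adhesion gene Epcam, the claudin genes Cldn4, Cldn6 and Cldn7, the transcription factor genes Snai1, Zeb1 and Zeb2, and the intermediate filament gene Vim. They were picked by symbol and are 10 of the 23412 genes in the count table. HMGN1 and HMGN2 bind nucleosomes, and the study measured RNA in mouse embryonic stem cells (mESCs) that lack either or both. Bulk poly-A RNA-Seq with paired-end reads was done on male v6.5 mESCs kept on gelatin in serum and leukemia inhibitory factor, with 4 genotypes (WT, Hmgn1-/-, Hmgn2-/- and Hmgn1-/-Hmgn2-/-) and 3 replicates of each. The knockout lines were made with CRISPR-Cas9 and each was grown from a single edited cell, with a homozygous 1-base frameshift deletion in Hmgn1 or insertion in Hmgn2, and the double knockout descends from the Hmgn2-/- line, in which Hmgn1 was then edited. Each genotype is therefore 1 line, and what belongs to a line cannot be told apart from what belongs to its genotype.

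In an epithelium, E-cadherin, the product of Cdh1, joins neighboring cells at adherens junctions, where catenins tie it to actin, and claudins seal the space between cells at tight junctions. During EMT, factors of the Snail and Zeb families bind E-box sequences near junction genes and repress them, while cells take on N-cadherin, the product of Cdh2, and vimentin, the product of Vim. mESCs grow as compact colonies that hold together through E-cadherin, and their descendants in the embryo go through EMT at gastrulation.

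In these data, knockout of either Hmgn gene or both went with less Cldn4, Cldn6 and Vim RNA. Cdh1 RNA was higher in all knockout libraries than in all WT libraries. The double knockout had the lowest Cldn4 levels, and Cldn4 was the only gene of the 10 to fall by more than 1 log2 unit. The 3 EMT transcription factor genes had no change that passed the test against WT mESCs, with Snai1 in Hmgn1-/- mESCs close to the limit. The effects of the 2 losses did not add up for Vim and Snai1, whose RNA was higher in the double knockout than the sum of the single-knockout changes gives.

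The 12 libraries held 17337908 to 31448468 counts, and the ranges of the 4 genotypes overlapped in depth. Hmgn2-/- replicate 3 had the fewest counts and differed most from the other libraries of its genotype. For its pairs, the chi-square of gene counts between 2 libraries was 36.38 and 20.63 per degree of freedom. In the other pairs of libraries of a genotype it ranged from 3.402 to 12.1. Levels are given as library-size-normalized counts, CPM after TMM scaling (TMM CPM), and per-library values are given in the order of replicates 1, 2 and 3. The targeted genes were lowest where they had been edited. Hmgn1 stood at 661.5, 594 and 612 TMM CPM in WT mESCs, 138, 139 and 142 in Hmgn1-/- mESCs, 546, 556 and 639.7 in Hmgn2-/- mESCs and 21.6, 19.9 and 21.5 in the double knockout. Its log2 fold change (log2 FC) against WT mESCs was −2.16 (adjusted p 3.36e-11) in Hmgn1-/- mESCs and −4.89 (8.56e-15) in the double knockout by the quasi-likelihood test of edgeR with Benjamini-Hochberg adjusted p, used throughout. Hmgn2 stood at 137, 121 and 119 TMM CPM in WT mESCs, 105.5, 113 and 109.5 in Hmgn1-/- mESCs, 50.9, 54.5 and 53.8 in Hmgn2-/- mESCs and 53.9, 50.5 and 54.5 in the double knockout. It fell by 1.24 log2 units in Hmgn2-/- mESCs (adjusted p 5.73e-06) and by 1.25 in the double knockout (1.95e-08), so frameshift alleles still gave RNA and RNA level does not measure protein here. Hmgn1 in Hmgn2-/- mESCs (log2 FC −0.10, edgeR adjusted p 0.493) and Hmgn2 in Hmgn1-/- mESCs (−0.21, 0.0275) did not pass.

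All 8 listed markers of pluripotent cells were found in all 12 libraries. Their summed level was 4550, 4773 and 4784 TMM CPM in WT mESCs, 4826, 4980 and 5168 in Hmgn1-/- mESCs, 4464, 4851 and 5131 in Hmgn2-/- mESCs and 4421, 4842 and 4864 in the double knockout, with Pou5f1 the most abundant. Nanog fell in each knockout against WT mESCs (log2 FC −0.32, −0.50 and −0.45 in Hmgn1-/-, Hmgn2-/- and double-knockout mESCs), and Esrrb rose in Hmgn1-/- mESCs (0.47) and in the double knockout (0.28), as did Dppa4 (0.26) and Utf1 (0.29) in Hmgn1-/- mESCs, all with edgeR adjusted p under 0.01. Comparisons with WT mESCs all use the same 3 WT libraries, so their values are not independent. In bulk RNA, fewer cells of a type cannot be told apart from less RNA in each cell.

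Junction genes dominated the 10 genes in WT mESCs. By TMM CPM per kilobase of annotated exon, which allows genes to be compared, Epcam (mean 139, SD 6.8) and Cdh1 (136, SD 5.17) were highest with overlapping values, then Cldn4 (67.6, SD 8.58) and Vim (62.7, SD 4.11), also overlapping, Cldn6 (46.7, SD 7.5) and Cldn7 (14.4, SD 1.11). The transcription factor genes and Cdh2 were far lower, with Snai1 at 2.35, Zeb1 at 1.865, Cdh2 at 1.11 and Zeb2 at 0.0931 TMM CPM per kilobase. In all 3 knockouts Cdh1 stood above Epcam with no overlap of libraries (166 and 123 TMM CPM per kilobase in Hmgn1-/- cells, 168 and 124.5 in Hmgn2-/- cells, 163 and 111.5 in the double knockout). Vim (49.3) was above Cldn4 (32.9) without overlap in the double knockout only.

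**Figure D1:**
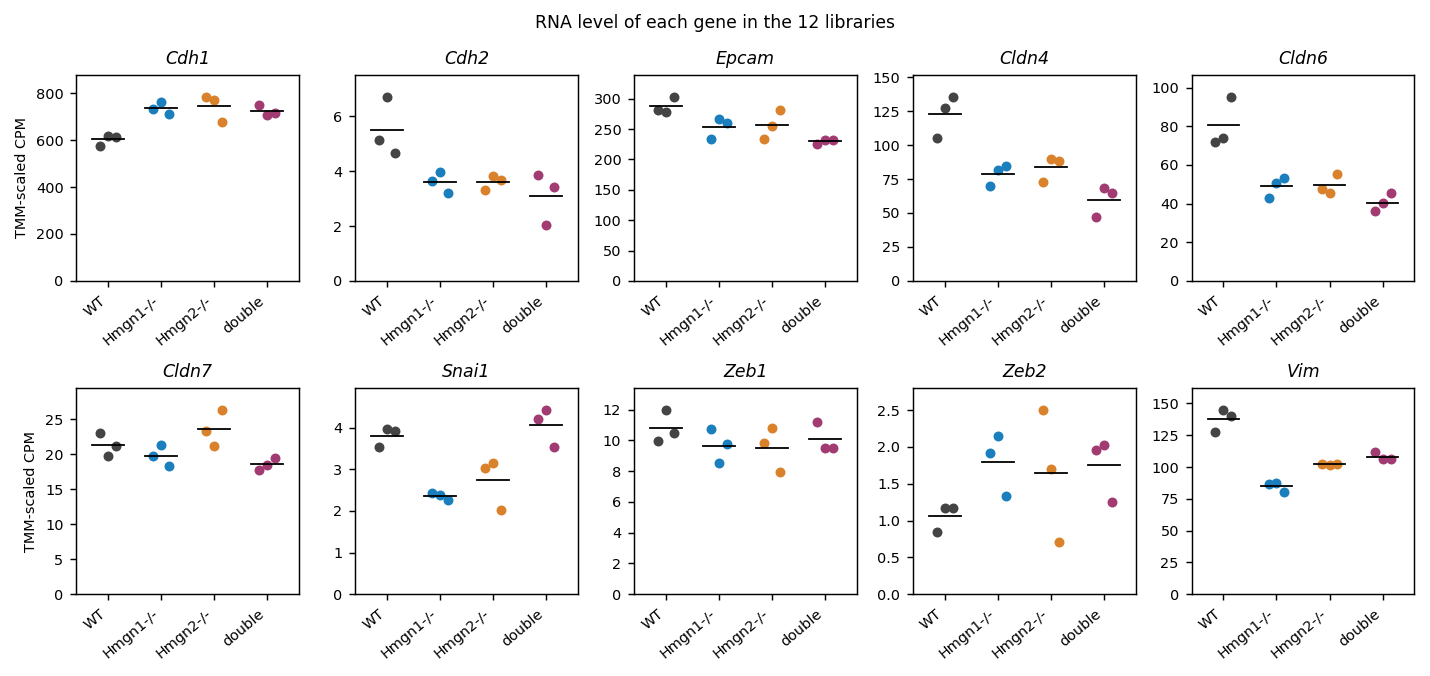
TMM CPM (y axis, 1 scale per gene) of the 10 genes in each genotype (x axis). Dots are the 3 libraries of a genotype and lines are means, and Cldn4, Cldn6 and Vim are lower and Cdh1 is higher in all 3 knockouts than in WT mESCs.

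The E-box bound by Snail and Zeb factors, CACCTG or CAGGTG, was looked for on both strands of promoter windows from RefSeq annotation of the GRCm38.p6 build. A window ran from 250 bases before to 50 bases after a transcription start, and 6640 of the 32851 windows of the genome (20.2%) held the motif. Of the 7 genes with windows examined, Cldn4, Cldn6, Cldn7, Epcam and Snai1 held it, and the 4 windows of Zeb2 and the 1 of Vim did not. This counts genes, which can have more than 1 window (Cldn7 had 2), while the 20.2% counts windows. The 2 are not alike, and no difference was tested. Windows of Cdh1, Cdh2 and Zeb1 were not analysed here. A match describes the sequence only and does not show that a protein binds there. The sites are shown because Snail and Zeb factors repress through this motif. They are written 5' to 3' on the strand of the gene, with the motif in capitals, and lie at chr5:134946906-134946935 and chr5:134946931-134946960 (minus strand) for Cldn4, chr17:23679260-23679289 and chr17:23679393-23679414 (plus) for Cldn6, chr11:69965312-69965341 and chr11:69965352-69965381 (plus) for Cldn7, chr17:87635780-87635809 and chr17:87635948-87635977 (plus) for Epcam, and chr2:167538057-167538086 (plus) for Snai1.
Cldn4 site 1: cctttcttgttgCAGGTGcaggcaggaaag
Cldn4 site 2: ctttaactgcagCACCTGtggccgcccttt
Cldn6 site 1: gggaaacgcacgCAGGTGgctatcgccgca
Cldn6 site 2: cagtctcttttgCAGGTGagcc
Cldn7 site 1: tttcttcctcttCACCTGgacgaggagggg
Cldn7 site 2: agacttccggttCAGGTGagtgtcccttca
Epcam site 1: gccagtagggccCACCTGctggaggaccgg
Epcam site 2: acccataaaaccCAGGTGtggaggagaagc
Snai1 site 1: gcagcccaggcgCACCTGctccggtctcag

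Against WT mESCs, more of the 10 genes fell than rose in every knockout. By edgeR adjusted p under 0.01, 4 of the 10 changed in Hmgn1-/- mESCs, with 17.3% of the 13917 genes tested called by this rule: Cdh1 rose, and Cldn4, Cldn6 and Vim fell. In Hmgn2-/- mESCs the same rule called 3 of 10 (Cldn4, Cldn6 and Vim, all lower), with 9.97% of 14047 genes called, and the count went to 0 without WT replicate 3 or Hmgn2-/- replicate 2 and to 1 without WT replicate 2. In the double knockout it called 5 of 10, with 18% of 14128 genes called: Cdh1 rose, and Epcam, Cldn4, Cldn6 and Vim fell. These shares lie above those over all genes tested, and the difference was not tested.

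Most of these changes were small. With an added limit of 1 log2 unit in size, edgeR's quasi-likelihood test called 0 of 10 in Hmgn1-/- mESCs, with 5.98% of all genes called (8 of the 10 had an unadjusted p under 0.05, and DESeq2 called 0). In Hmgn2-/- mESCs it also called 0 of 10, with 5.15% of all genes called (6 had an unadjusted p under 0.05, and DESeq2 called 0). For double-knockout mESCs edgeR and DESeq2 each called 1 of 10, Cldn4, with 6.30% of all genes called. These shares are near those over all genes and do not set the 10 genes apart. The median log2 FC of the 10 was −0.39 in Hmgn1-/- cells, −0.30 in Hmgn2-/- cells and −0.27 in the double knockout, and that of all genes tested was 0.004, 0.013 and 0.0037. Genes past both limits were mostly lower in the knockouts: 707 fell and 125 rose in Hmgn1-/- mESCs, 615 fell and 109 rose in Hmgn2-/- mESCs, and 706 fell and 184 rose in the double knockout.

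**Figure D2:**
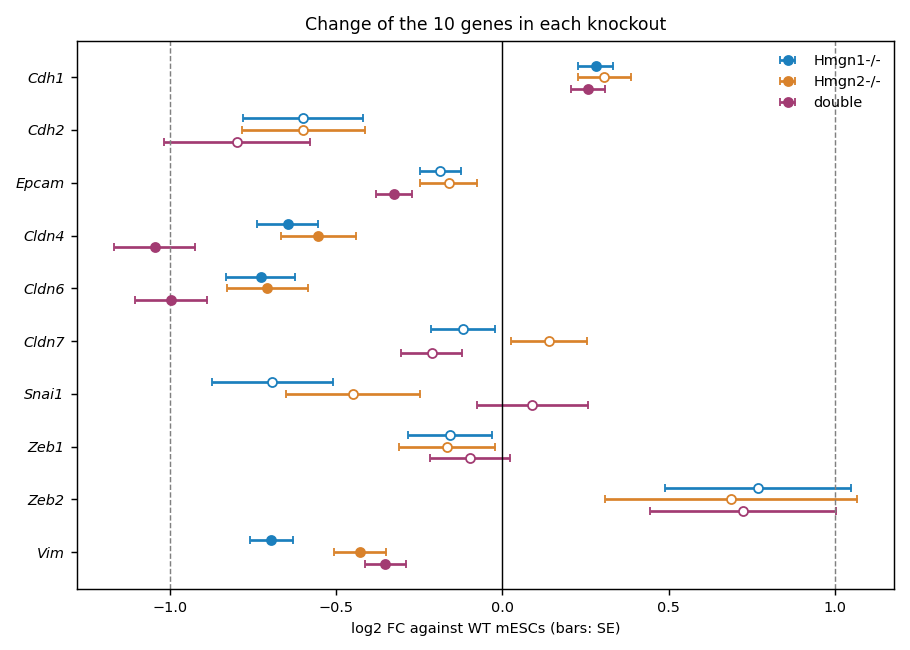
Log2 FC against WT mESCs (x axis) of the 10 genes in each knockout, with standard errors as bars and dashed lines at 1 log2 unit. Filled points have an edgeR adjusted p under 0.01, and only Cldn4 in the double knockout lies past the dashed line.

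Cldn4 fell the most of the 10 genes in the double knockout. It encodes claudin-4, a tight-junction protein of simple epithelia, and lies at chr5:134945119-134946934 (GRCm38). Its levels were 105, 127 and 136 TMM CPM in WT mESCs, 69.9, 81.7 and 84.6 in Hmgn1-/- mESCs, 72.5, 90.0 and 88.3 in Hmgn2-/- mESCs and 46.9, 68.1 and 64.5 in the double knockout. Every knockout library was below every WT library, and every double-knockout library was below every single-knockout library. The log2 FC against WT mESCs was −0.65 (edgeR adjusted p 0.000141) in Hmgn1-/- cells, −0.55 (0.00622) in Hmgn2-/- cells and −1.05 (SE 0.121, 95% interval −1.31 to −0.78, 2.41e-05) in the double knockout, which is 0.485 of the WT level. The double-knockout value came under 1 log2 unit in size without WT replicate 3 (−0.97) or double-knockout replicate 1 (−0.89), at edgeR adjusted p of 0.00011 and 6.17e-05. The Hmgn2-/- call was lost without WT replicate 2 (adjusted p 0.0331), WT replicate 3 (0.0397), Hmgn2-/- replicate 1 (0.0106) or Hmgn2-/- replicate 2 (0.0163).

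Cldn6 fell with Cldn4 in all 3 knockouts. It encodes claudin-6, a tight-junction protein of embryonic epithelia and pluripotent cells, and lies at chr17:23679249-23682446 (GRCm38). Its levels were 71.9, 74.2 and 95.3 TMM CPM in WT mESCs, 42.9, 50.4 and 53.3 in Hmgn1-/- mESCs, 47.5, 45.2 and 55.3 in Hmgn2-/- mESCs and 36.0, 40.1 and 45.5 in the double knockout. All knockout libraries were below all WT libraries, and the double knockout overlapped each single knockout. The log2 FC was −0.73 (edgeR adjusted p 0.00016), −0.71 (0.00209) and −0.997 (SE 0.108, 95% interval −1.23 to −0.77, 1.31e-05) in Hmgn1-/-, Hmgn2-/- and double-knockout mESCs. The double-knockout value is 0.501 of the WT level, just short of the limit of 1 log2 unit, so Cldn6 and Cldn4 are alike in size there. The Hmgn2-/- call was lost without WT replicate 3 (edgeR adjusted p 0.0106) or Hmgn2-/- replicate 2 (0.016), and the double-knockout log2 FC passed 1 in size without WT replicate 1 (−1.08), WT replicate 2 (−1.05) or double-knockout replicate 3 (−1.09).

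Cldn7 did not follow the other claudin genes. It encodes claudin-7, a claudin also found along the lateral membrane, and lies at chr11:69964779-69967885 (GRCm38). Its levels were 23.02, 19.8 and 21.2 TMM CPM in WT libraries, 18.4 to 21.3 in Hmgn1-/- cells, 21.2 to 26.3 in Hmgn2-/- cells and 17.8, 18.4 and 19.5 in the double knockout, where alone all libraries were below WT. Its log2 FC was −0.12 (edgeR adjusted p 0.392), 0.14 (0.45) and −0.21 (0.103) in Hmgn1-/-, Hmgn2-/- and double-knockout mESCs. Of 11554 well-counted genes, those whose 12-library profile lay nearest to that of Cldn4 were Gstm1, Cldn6 and Liph, with root-mean-square distances of 0.152, 0.152 and 0.155 log2 units. The log2 FC in the double knockout was −1.06 for Gstm1 and −1.30 for Liph, beside −1.05 for Cldn4.

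Cdh1 RNA was higher in the knockouts, unlike that of Cldn4 and Cldn6. It encodes E-cadherin and lies at chr8:106603351-106670246 (GRCm38). Its levels were 576, 617 and 614 TMM CPM in WT mESCs, 733, 762 and 709.9 in Hmgn1-/- mESCs, 785, 771 and 679 in Hmgn2-/- mESCs and 750, 707 and 713 in the double knockout. Every knockout library was above every WT library. The log2 FC was 0.28 (edgeR adjusted p 0.00119, 95% interval 0.17 to 0.39) in Hmgn1-/- cells, 0.31 (0.0202, 0.13 to 0.48) in Hmgn2-/- cells and 0.26 (0.00192, 0.15 to 0.37) in the double knockout. The rise passed in the first and the last, and the Hmgn2-/- value was the largest, with the widest interval. These are levels of 1.216, 1.237 and 1.196 times WT, and no difference between the 3 knockouts passed (log2 FC 0.02, −0.02 and −0.04, edgeR adjusted p 0.946 or higher). The call was lost without Hmgn1-/- replicate 2 (0.25, adjusted p 0.0126) in Hmgn1-/- mESCs and without WT replicate 3 (0.26, 0.0109) in the double knockout, and was gained in Hmgn2-/- mESCs without Hmgn2-/- replicate 3 (0.37, 0.000655), by DESeq2 (0.005) and with all 12 libraries in a fit (0.00263).

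Cdh2, the cadherin gene that marks the mesenchymal state, was scarce. Its levels were 5.15, 6.72 and 4.67 TMM CPM in WT mESCs, 3.65, 3.97 and 3.22 in Hmgn1-/- mESCs, 3.31, 3.82 and 3.69 in Hmgn2-/- mESCs and 3.85, 2.03 and 3.43 in the double knockout. Every knockout library was below every WT library, but the log2 FC of −0.60 (edgeR adjusted p 0.0229), −0.60 (0.0436) and −0.80 (0.0142, 95% interval −1.27 to −0.33) in Hmgn1-/-, Hmgn2-/- and double-knockout mESCs did not pass. The double-knockout value did pass without WT replicate 1 (−0.84, edgeR adjusted p 0.00732), by DESeq2 (0.00576), with all 12 libraries in a fit (0.00842) and with no filter beyond 1 count (0.00183). The Hmgn1-/- value passed with the replicate number as a block (edgeR adjusted p 0.00586). No knockout therefore held more Cdh2 together with less Cdh1, the exchange of cadherins that goes with EMT.

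The fall of Epcam passed the test in the double knockout. It encodes a homophilic adhesion molecule found at the sides of epithelial cells and mESCs, and lies at chr17:87635979-87651129 (GRCm38). Its levels were 281, 278 and 303 TMM CPM in WT mESCs, 234, 266 and 261 in Hmgn1-/- mESCs, 233.5, 256 and 281 in Hmgn2-/- mESCs and 226, 232.4 and 232 in the double knockout. All Hmgn1-/- and double-knockout libraries were below all WT libraries, while Hmgn2-/- mESCs overlapped them. The log2 FC was −0.33 (edgeR adjusted p 0.000445, 95% interval −0.44 to −0.21) in the double knockout, −0.19 (0.0358) in Hmgn1-/- mESCs and −0.16 (0.239) in Hmgn2-/- mESCs. The Hmgn1-/- value passed with the replicate number as a block (edgeR adjusted p 0.00896). Every double-knockout library was below every single-knockout library. The difference of the double knockout from Hmgn1-/- mESCs (−0.14, edgeR adjusted p 0.41) or Hmgn2-/- mESCs (−0.16, 1) did not pass. The fall is therefore not shown to be special to the double knockout.

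Snai1 showed no change against WT mESCs that passed in the main fits (pairwise, default filter, no block), but it had the lowest levels in Hmgn1-/- and Hmgn2-/- libraries. It encodes Snail, a zinc-finger repressor of Cdh1 and other junction genes, and lies at chr2:167538195-167542814 (GRCm38). Its levels were 3.53, 3.97 and 3.91 TMM CPM in WT mESCs, 2.42, 2.39 and 2.25 in Hmgn1-/- mESCs, 3.04, 3.14 and 2.02 in Hmgn2-/- mESCs and 4.197, 4.425 and 3.55 in the double knockout. The libraries of each single knockout were below all WT libraries, and the double knockout overlapped WT and was above both single knockouts. The log2 FC was −0.69 (edgeR adjusted p 0.0107) in Hmgn1-/- cells, −0.45 (0.158) in Hmgn2-/- cells and 0.09 (0.731) in the double knockout. The Hmgn1-/- value passed without WT replicate 1 (−0.75, edgeR adjusted p 0.00669), and also with all 12 libraries in a fit (0.00955), with no filter beyond 1 count (0.00857), with at least 10 counts in every library (0.00963) and in a fit blocked by replicate number (0.00718). Snai1 was covered by few reads, 34 to 131 counts in a library.

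Zeb1 and Zeb2, which encode zinc-finger and homeodomain repressors of Cdh1, did not change by the test. Zeb1 ranged from 9.99 to 11.98 TMM CPM in WT libraries, 8.51 to 10.8 in Hmgn1-/- cells, 7.97 to 10.8 in Hmgn2-/- cells and 9.50 to 11.2 in the double knockout, with overlap throughout. Its log2 FC was −0.16 (edgeR adjusted p 0.392), −0.17 (0.487) and −0.10 (0.599) in Hmgn1-/-, Hmgn2-/- and double-knockout mESCs, with 95% intervals of −0.43 to 0.11, −0.48 to 0.15 and −0.35 to 0.16. Zeb2, at chr2:44983632-45117395 (GRCm38), had only 12 to 65 counts in a library, or 0.843, 1.18 and 1.18 TMM CPM in WT mESCs, 1.92, 2.15 and 1.33 in Hmgn1-/- mESCs, 2.50, 1.70 and 0.714 in Hmgn2-/- mESCs and 1.95, 2.03 and 1.26 in the double knockout. Hmgn1-/- and double-knockout libraries were above all WT libraries and Hmgn2-/- libraries overlapped them, and the log2 FC of 0.77 (edgeR adjusted p 0.0547), 0.69 (0.254) and 0.72 (0.0676) in Hmgn1-/-, Hmgn2-/- and double-knockout mESCs did not pass. Its exons share 359 bases with the antisense gene Zeb2os, and whether the counting used strand is not given in the sources used here.

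Vim fell in all 3 knockouts, with the smallest log2 FC in the double knockout. It encodes vimentin, the intermediate filament protein of mesenchymal cells, and lies at chr2:13573927-13582826 (GRCm38). Its levels were 127, 145 and 139.9 TMM CPM in WT mESCs, 87.0, 87.7 and 80.7 in Hmgn1-/- mESCs, 102.5, 101 and 102 in Hmgn2-/- mESCs and 112, 106 and 106 in the double knockout. The 4 genotypes did not overlap, with WT highest, then the double knockout, Hmgn2-/- and Hmgn1-/- mESCs. The log2 FC against WT mESCs was −0.69 (edgeR adjusted p 3.58e-06), −0.43 (0.00294) and −0.35 (0.000774) in Hmgn1-/-, Hmgn2-/- and double-knockout mESCs, or levels of 0.618, 0.744 and 0.784 of WT. The Hmgn2-/- call was lost without WT replicate 2 (adjusted p 0.0239), WT replicate 3 (0.0237) or Hmgn2-/- replicate 2 (0.0234).

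Between the knockouts, few differences of the 10 genes passed, and their number depended on the fit. With the replicate number as a block, 4 of 10 passed in the double knockout against Hmgn1-/- mESCs (2.98% of all genes called). Against Hmgn2-/- mESCs 1 of 10 passed in that fit (0.557% called). Vim, higher in the double knockout than in Hmgn1-/- mESCs, was the only gene of the 10 with a difference by edgeR adjusted p under 0.01 in the fit without a block (log2 FC 0.34, SE 0.0588, adjusted p 0.00414). It was 1 of 10 in that comparison, with 1.09% of 13710 genes called, and the call was lost without any of 5 of the 6 libraries: Hmgn1-/- replicates 1 (adjusted p 0.0132), 2 (0.0193) and 3 (0.0186) and double-knockout replicates 1 (0.0127) and 2 (0.0277). With the limit of 1 log2 unit edgeR called 0 of 10 there, with 0.511% of genes called (5 had an unadjusted p under 0.05, and DESeq2 called 0). Snai1 (log2 FC 0.78, edgeR adjusted p 0.0282), Cldn4 (−0.40, 0.122) and Cldn6 (−0.27, 0.288) did not pass in this fit, and all 3 passed with the replicate number as a block (edgeR adjusted p 0.00557, 9.45e-06 and 0.00264).

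The double knockout was also compared with Hmgn2-/- mESCs, its parent line, and no gene of the 10 passed in the fit without a block. edgeR called 0 of 10 by adjusted p under 0.01, with 0.0434% of 13816 genes called, and 0 of 10 with the fold limit, also with 0.0434% called (4 had an unadjusted p under 0.05, and DESeq2 called 0 by either rule). Cldn4 had a log2 FC of −0.49 (SE 0.141, edgeR adjusted p 0.54) with no overlap of libraries, Vim 0.08 (1), Snai1 0.54 (0.87) and Cldn7 −0.35 (0.607). Between the single knockouts, Hmgn2-/- against Hmgn1-/- mESCs, edgeR called 0 of 10 by adjusted p, with 0.352% of 13648 genes called, and 0 of 10 with the fold limit, with 0.176% called (2 had an unadjusted p under 0.05, and DESeq2 called 0 by either rule). Vim was higher in every Hmgn2-/- library than in any Hmgn1-/- library (0.26, edgeR adjusted p 0.536), and Cldn7 had a log2 FC of 0.25 (1). The lower Cldn4 level of the double knockout than of the single knockouts did not pass in these fits, and it passed with the replicate number as a block (edgeR adjusted p 9.45e-06 against Hmgn1-/- mESCs and 0.000548 against Hmgn2-/- mESCs) and, against Hmgn1-/- mESCs, with no filter beyond 1 count (0.00354).

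Vim and Snai1 departed from additivity. The departure is the log2 FC that goes with Hmgn1 loss in Hmgn2-/- mESCs minus that in WT mESCs, fitted over all 12 libraries, and a positive value means that the double knockout lies above the sum of the single-knockout changes. By edgeR adjusted p under 0.01 it was found for 2 of 10 genes, with 6.32% of 14323 genes called, and with a size of at least 1 for 1 of 10, Snai1, with 3.48% called. The median over the 10 genes was 0.20 and over all genes −0.0056, and of the genes past both limits 427 were positive and 72 negative. Every Hmgn1-/- library held less Vim and Snai1 RNA than any WT library, while every double-knockout library held more of both than any Hmgn2-/- library.

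The Vim departure was 0.78 log2 units (SE 0.0907, 95% interval 0.59 to 0.97, edgeR adjusted p 4.91e-05) and held in 12 of 12 omissions of a library (0.74 to 0.83). The Snai1 departure was 1.235 (SE 0.249, 95% interval 0.70 to 1.765, edgeR adjusted p 0.00379), at means of 3.81 (SD 0.241), 2.35 (SD 0.0898), 2.735 (SD 0.62) and 4.06 (SD 0.455) TMM CPM in WT, Hmgn1-/-, Hmgn2-/- and double-knockout mESCs. It passed under 0.01 no longer without WT replicate 2 (edgeR adjusted p 0.0111) or 3 (0.0118), Hmgn1-/- replicate 1 (0.0104), 2 (0.0106) or 3 (0.0111), or double-knockout replicate 1 (0.0112) or 2 (0.0128), and stayed between 1.08 and 1.34. Cldn4 (0.16, 95% interval −0.23 to 0.56, edgeR adjusted p 0.649), Cldn6 (0.45, 0.09 to 0.81, 0.101), Cdh1 (−0.32, 0.027), Epcam (0.03, 0.893), Cdh2 (0.41, 0.429), Cldn7 (−0.22, 0.34) and Zeb2 (−0.73, 0.384) had no departure that passed. The Cdh1 departure passed without Hmgn2-/- replicate 3 (−0.38, edgeR adjusted p 0.00169) and by DESeq2 (adjusted p 0.00676). With the replicate number as a block, Cdh1 (edgeR adjusted p 0.00969) and Cldn6 (0.00426) passed.

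**Figure D3:**
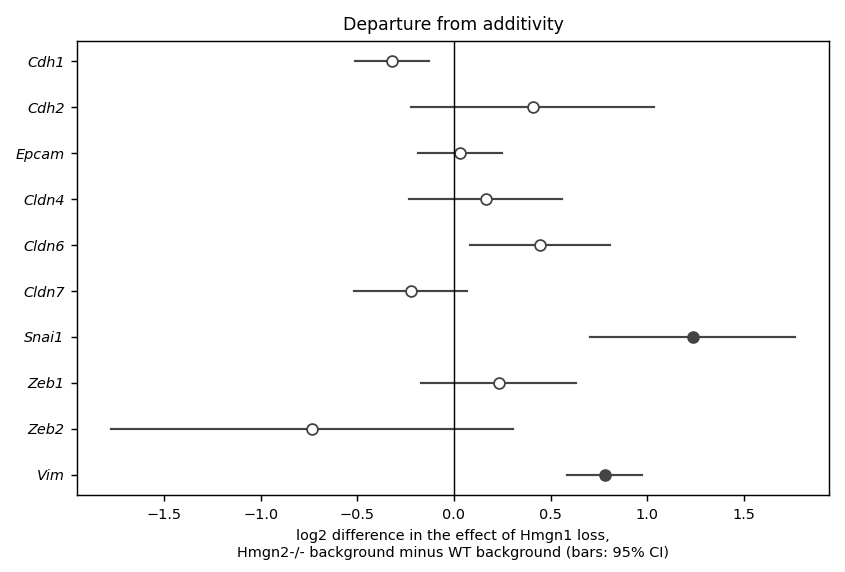
Departure from additivity in log2 units (x axis) of the 10 genes, with 95% intervals as bars over all 12 libraries. Filled points have an edgeR adjusted p under 0.01, and Vim and Snai1 lie to the right of 0.

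Genes that act with these 10 were read as lists, which overlap: Vim and Cdh2 belong to the mesenchymal list, Snai1, Zeb1 and Zeb2 to the list of EMT transcription factors, and the cadherins and claudins to their families. Beside the list counts, edgeR adjusted p under 0.01 called 17.3%, 9.97% and 18% of all genes in Hmgn1-/-, Hmgn2-/- and double-knockout mESCs. Of these genes, 1399 fell and 1013 rose, 936 fell and 464 rose, and 1443 fell and 1101 rose, in that order. No list was tested against these shares. Among the partners of cadherins at adherens junctions, 11 of 12 were tested, and by edgeR adjusted p under 0.01 the nectin gene Pvrl1 rose (log2 FC 0.43, 0.45 and 0.56 in Hmgn1-/-, Hmgn2-/- and double-knockout mESCs) and the vinculin gene Vcl fell (−0.57, −0.65 and −0.64), joined by Jup in the double knockout (−0.48). The most abundant, the β-catenin gene Ctnnb1, had values of −0.07, −0.09 and −0.06 (adjusted p 0.339, 0.457 and 0.348), and the list median was 0.04, 0.06 and 0.08. Of 16 partners of claudins at tight junctions, 2 rose and 2 fell in Hmgn1-/- mESCs (Pard3 0.47, Ocln 0.52, Cgn −0.36, Cgnl1 −0.41), 1 rose in Hmgn2-/- mESCs (Pard3 0.46), and 1 rose and 4 fell in the double knockout (Pard3 0.52, Cgn −0.35, Cgnl1 −0.56, Crb3 −0.51, Jam2 −0.32), with medians of −0.08, −0.11 and −0.11. The fall of Cldn4 and Cldn6 was thus not shared by most of the genes that build the junction around them.

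The cadherin and claudin families showed which relatives moved with Cdh1, Cldn4 and Cldn6. Of the 25 claudin genes, 8 were tested in the double knockout and 3 fell by edgeR adjusted p under 0.01, Cldn3, Cldn4 and Cldn6. Cldn3 had a log2 FC of −0.86 in Hmgn1-/- cells, −0.65 in Hmgn2-/- cells (edgeR adjusted p 0.0444) and −0.98 in the double knockout, so 3 of 8 fell in Hmgn1-/- mESCs and 2 of 9 in Hmgn2-/- mESCs. The summed level of the family was 272 to 326 TMM CPM in WT libraries, 202 to 226 in Hmgn1-/- cells, 219.7 to 243 in Hmgn2-/- cells and 178 to 203 in the double knockout, led by Cldn4, with Cldn16, Cldn17 and Cldn24 at 0 in all libraries, and the median log2 FC was −0.09, 0.01 and −0.29.

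Of the 23 cadherin genes, of which Cdh1 was the most abundant, 9 were tested in Hmgn1-/- mESCs, where Cdh1 rose and Cdh23 fell (log2 FC −1.28), and 11 in Hmgn2-/- mESCs, where Cdh9 fell (−1.93). By edgeR adjusted p under 0.01, of 12 tested in the double knockout Cdh1, Cdh5 (2.97) and Cdh6 (2.72) rose and Cdh9 (−1.84) and Cdh13 (−3.28) fell. These last 4 are scarce, with Cdh5 at 2, 0 and 9 counts in WT and 31, 22 and 36 in double-knockout libraries, Cdh6 at 12, 0 and 1 against 25, 28 and 33, and Cdh13 at 13, 22 and 53 against 1, 3 and 5. The family medians were −0.28, −0.01 and −0.03 in Hmgn1-/-, Hmgn2-/- and double-knockout mESCs, and Cdh16 was at 0 in all libraries. Cdh3 was lower in the double knockout than in Hmgn1-/- mESCs (−0.45, edgeR adjusted p 0.00882).

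Some other epithelial genes fell past 1 log2 unit, and others rose. Among 8 desmosome genes, Dsp, which encodes desmoplakin, stood at 27.2, 30.9 and 39.9 TMM CPM in WT mESCs, 7.30, 5.40 and 5.65 in Hmgn1-/- mESCs, 10.7, 8.52 and 4.64 in Hmgn2-/- mESCs and 7.11, 8.76 and 8.54 in the double knockout. Dsp (log2 FC −2.41, −2.01 and −2.02) and Dsc2 (−2.22, −1.66 and −1.27) fell past 1 log2 unit in all 3 knockouts, Perp fell in Hmgn1-/- mESCs (−0.76), Dsg2 rose in all 3 (0.76, 0.59 and 0.65) and Evpl rose in Hmgn2-/- mESCs (0.68) and the double knockout (0.66), with list medians of −0.09, −0.11 and −0.13.

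Among 16 epithelial regulators and markers, Grhl2, which encodes a transcription factor of epithelial junction genes, stood at 58.5, 84.2 and 91.2 TMM CPM in WT mESCs, 34.2, 35.7 and 44.2 in Hmgn1-/- mESCs, 34.0, 35.5 and 32.7 in Hmgn2-/- mESCs and 32.1, 34.1 and 36.6 in the double knockout. Grhl2 fell by 1.04, 1.19 and 1.19 log2 units in Hmgn1-/-, Hmgn2-/- and double-knockout mESCs. Prss8 fell past 1 log2 unit in the double knockout (log2 FC −1.12) and by less in Hmgn1-/- (−0.97) and Hmgn2-/- mESCs (−0.88), and St14 (−0.47 in Hmgn1-/- mESCs and −0.50 in the double knockout) and Esrp1 (−0.38 in the double knockout) also fell. Grhl3 rose in all 3 (0.84, 0.67 and 0.70), Esrp2 in Hmgn1-/- (0.54) and Hmgn2-/- mESCs (0.64), Klf5 in Hmgn1-/- mESCs (0.33) and the double knockout (0.45) and Spint1 in Hmgn1-/- mESCs (0.25). Of the 16, by edgeR adjusted p under 0.01, 4 rose and 4 fell in Hmgn1-/- mESCs, 2 rose and 3 fell in Hmgn2-/- mESCs, and 2 rose and 5 fell in the double knockout, with list medians of 0.01, −0.03 and −0.13.

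**Figure D4:**
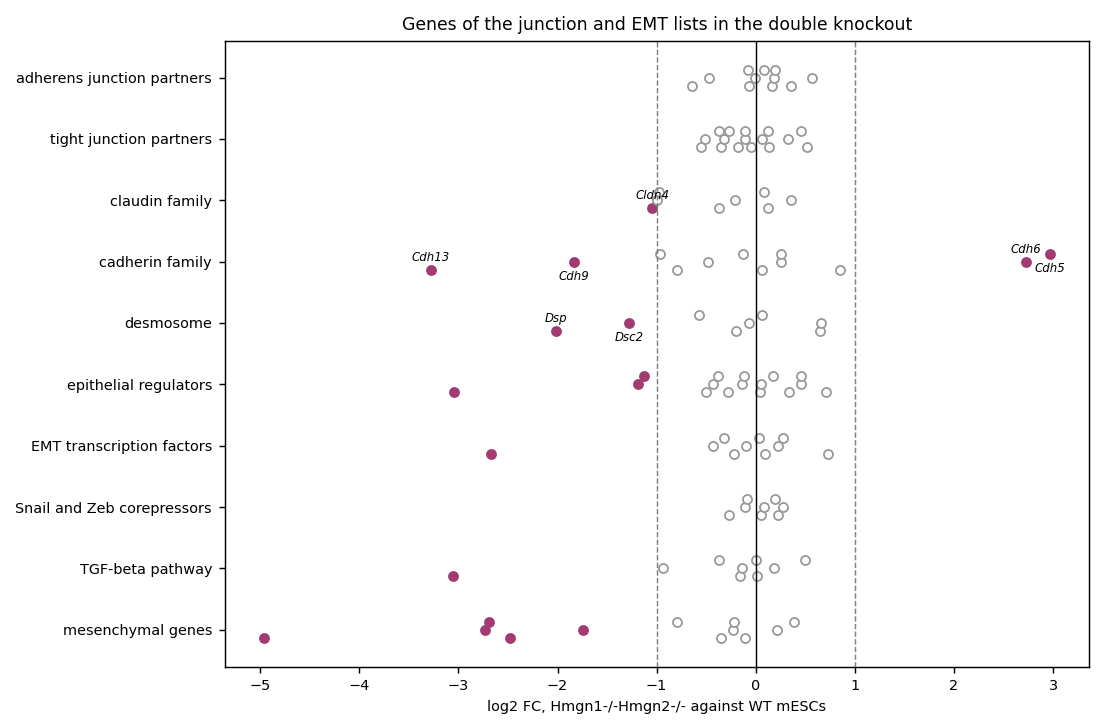
Log2 FC in the double knockout against WT mESCs (x axis) of the genes of each list (y axis), where each dot is a gene and dashed lines mark 1 log2 unit. Filled dots have an edgeR adjusted p under 0.01 and lie past the dashed lines, those of the claudin, cadherin and desmosome lists are named, and most filled dots are lower in the double knockout.

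On the mesenchymal list, which holds Vim and Cdh2, more genes fell than rose in each knockout. Of 12 genes tested, 2 rose and 7 fell in Hmgn1-/- mESCs, 7 fell in Hmgn2-/- mESCs, and 1 rose and 6 fell in the double knockout by edgeR adjusted p under 0.01, with medians of −0.81, −0.69 and −0.57. Of all genes tested, 17.3%, 9.97% and 18% were called by this rule, more of them lower than higher. The difference from these shares was not tested. Acta2 (log2 FC −3.14, −2.91 and −4.96), Tagln (−2.29, −1.88 and −2.69), Cd44 (−2.01, −2.12 and −2.48) and Axl (−1.66, −1.33 and −1.75) fell past 1 log2 unit in each. Tagln, which encodes an actin-binding protein of smooth muscle, stood at 53.1, 50.7 and 60.5 TMM CPM in WT mESCs, 9.145, 10.1 and 14.7 in Hmgn1-/- mESCs, 11.7, 14.0 and 19.3 in Hmgn2-/- mESCs and 6.79, 8.49 and 10.45 in the double knockout. Fn1, the most abundant gene of the list in 11 of 12 libraries, rose in Hmgn1-/- mESCs (0.59), and Mmp14 rose in Hmgn1-/- mESCs (0.36) and the double knockout (0.38), so the list did not move in 1 direction. Its summed level was 1030 to 1162 TMM CPM in WT libraries, 915 to 1071 in Hmgn1-/- cells, 818 to 1019 in Hmgn2-/- cells and 979 to 1063 in the double knockout. The fall of Vim was the smallest of those that passed on its list.

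Among the regulators upstream of EMT, few genes passed the test, and Tgfb2 had the largest fall. Among 13 EMT transcription factors, edgeR called 0 of the 9 tested in Hmgn1-/- mESCs (4 had an unadjusted p under 0.05, and DESeq2 called 0) and 0 of the 9 in Hmgn2-/- mESCs (3 and 0), with medians of 0.12, −0.17 and −0.03 in Hmgn1-/-, Hmgn2-/- and double-knockout mESCs and Tcf3 most abundant. Only Twist2, 1 of 10 tested, fell in the double knockout (log2 FC −2.67, edgeR adjusted p 0.00672, and 0.026 by DESeq2, which called 0), on counts of 12, 8 and 13 in WT and 4, 0 and 1 in double-knockout libraries. Of 8 corepressors that work with Snail and Zeb factors, Ctbp2 rose in Hmgn1-/- mESCs (0.26) and the double knockout (0.22) and Hdac2 fell (−0.28 and −0.27) by edgeR adjusted p under 0.01, while 0 of 8 passed in Hmgn2-/- mESCs (1 had an unadjusted p under 0.05, and DESeq2 called 0), with medians of 0.09, 0.11 and 0.07. Of 9 TGF-β pathway genes tested, Tgfb2 fell in all 3 knockouts (−2.45, −2.85 and −3.05), Tgfbr3 fell in Hmgn1-/- mESCs (−1.13), and Smad7 rose in Hmgn1-/- mESCs (0.46) and the double knockout (0.49), with list medians of −0.24, −0.23 and −0.14.

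On the mesenchymal list, the median departure from additivity was 0.94 log2 units, and over all genes it was −0.0056. By edgeR adjusted p under 0.01, 5 of its 12 tested genes had a positive departure, with 6.32% of all genes called in either direction. The difference between these shares was not tested. Of all genes past both limits, 427 departures were positive and 72 negative. Among the 5 were Vim, Sparc (1.49), Tagln (1.50) and Axl (1.26, lost in 10 of 12 omissions of a library, adjusted p up to 0.0294). Sparc fell in the single knockouts (log2 FC −0.92 and −0.77) and had a value of −0.22 (edgeR adjusted p 0.15) in the double knockout, where it was higher than in Hmgn1-/- mESCs (0.70). On the other lists Dsp (2.41), Dsc2 (2.61), Vcl (0.59), Grhl2 (1.05), Tgfb2 (2.26) and Tgfbr3 (1.55) had positive and Dsg2 (−0.69), Spint1 (−0.40), Grhl3 (−0.80) and Esrp2 (−0.72) negative departures. The Tgfb2 and Tgfbr3 calls were each lost in 11 of 12 omissions (adjusted p up to 0.0369 and 0.0233), and Grhl2 came under 1 in size in 5 of 12.

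Genes that mark cell types other than mESCs also moved with genotype, and their part in the result was not tested. The 10 markers of extraembryonic endoderm, a cell type that can arise in mESC cultures, summed to 82.3, 106 and 100.3 TMM CPM in WT mESCs, 325, 272 and 278.5 in Hmgn1-/- mESCs, 364, 327 and 237 in Hmgn2-/- mESCs and 664, 658 and 598 in the double knockout, with Lama1 the most abundant. Past 1 log2 unit, 8, 8 and 10 of 10 rose in Hmgn1-/-, Hmgn2-/- and double-knockout mESCs by edgeR, among them Gata6 (log2 FC 2.44, 2.81 and 3.96), Gata4 (2.55, 2.83 and 3.73), Sox17 (3.37, 3.66 and 4.75) and Pdgfra (3.53, 3.76 and 4.89). Of all genes tested, 5.98%, 5.15% and 6.30% were called past this limit in either direction. Of the 10 markers, 9 were higher in the double knockout than in Hmgn1-/- mESCs by edgeR adjusted p under 0.01 (1.09% of all genes called), and 7 had a negative departure from additivity. Against Hmgn2-/- mESCs edgeR called 1 of the 10 higher in the double knockout, Dab2 (1.37), and DESeq2 called 9, with all 10 at an unadjusted p under 0.05.

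Markers of fibroblasts, which express Vim, were low, and most of those tested fell. The mESCs were kept on gelatin, and no feeder cells are named in the sources used here. Their sum was 21.7, 18.1 and 22.6 TMM CPM in WT mESCs, 7.07, 5.925 and 6.80 in Hmgn1-/- mESCs, 6.47, 7.27 and 6.96 in Hmgn2-/- mESCs and 6.12, 8.985 and 7.74 in the double knockout, led by Thy1. By edgeR adjusted p under 0.01, 3 of 4 tested genes fell in Hmgn1-/- mESCs, 3 of 4 in Hmgn2-/- mESCs and 4 of 5 in the double knockout (Col1a1, Col1a2, Thy1 and, in the double knockout, Twist2, which is also an EMT factor and which DESeq2 did not call, leaving 3 there), while Lum and Fap were at 0 in all 12 libraries. Of all genes tested, 17.3%, 9.97% and 18% were called against WT mESCs by edgeR adjusted p under 0.01. Col1a1, Col1a2 and Thy1 had positive departures from additivity. Vim is a gene of fibroblasts too, and the part of such cells in its fall was not tested.

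Most trophoblast markers and some primitive-streak markers fell as well, and neural markers moved in both directions. Trophoblast markers, 6 of 7 in the table, summed to 29.2, 33.1 and 36.3 TMM CPM in WT mESCs, 12.3, 9.84 and 11.7 in Hmgn1-/- mESCs, 14.9, 13.4 and 13.4 in Hmgn2-/- mESCs and 12.2, 12.6 and 13.7 in the double knockout, with 4, 3 and 4 of 5 tested lower by edgeR adjusted p under 0.01, Ascl2 most abundant in WT mESCs and Eomes in the knockouts. The 7 markers of primitive streak and mesoderm, where cells go through EMT at gastrulation, summed to 7.59, 9.96 and 11.1 TMM CPM in WT mESCs, 5.23, 5.02 and 4.503 in Hmgn1-/- mESCs, 5.54, 4.92 and 5.23 in Hmgn2-/- mESCs and 5.255, 5.24 and 4.81 in the double knockout, and 3, 2 and 2 of 6 tested fell. T was the most abundant in 2 of the 3 WT libraries. Neural markers, led by Tubb3, summed to 180.2 to 210 TMM CPM in WT libraries, 199 to 206 in Hmgn1-/- cells, 187.5 to 195 in Hmgn2-/- cells and 189.5 to 194 in the double knockout. By edgeR adjusted p under 0.01, Sox1 rose (log2 FC 0.575, 0.69 and 0.81 in Hmgn1-/-, Hmgn2-/- and double-knockout mESCs) and Nes fell (−0.70, −0.79 and −0.78), and Pax6 rose in Hmgn1-/- mESCs (0.75), which makes 3 of 5, 2 of 5 and 2 of 6 neural genes tested, with medians of 0.575, 0.27 and 0.23. The part of these cell types in the Cldn4, Cldn6 and Vim results was not tested. Beside the marker counts, 17.3%, 9.97% and 18% of all genes tested were called against WT mESCs by edgeR adjusted p under 0.01.

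**Figure D5:**
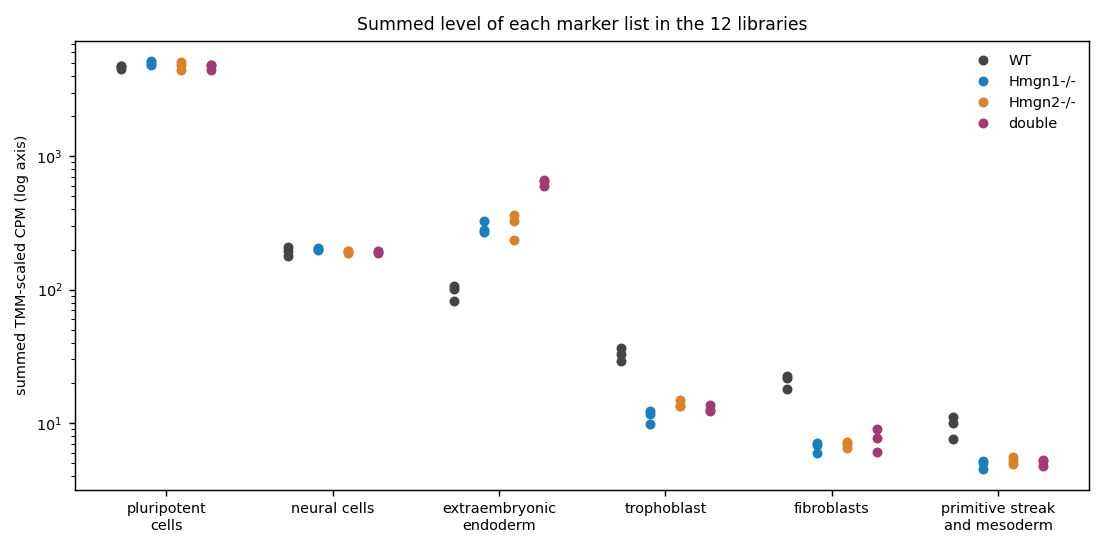
Summed TMM CPM (y axis, log scale) of marker lists of cell types in the 12 libraries, with a dot for each library of a genotype (x axis). Extraembryonic endoderm markers are higher and fibroblast, trophoblast and primitive-streak markers lower in the knockouts, while the sums of neural markers, led by Tubb3, overlap WT, as do those of pluripotent markers except in Hmgn1-/- mESCs, where they are higher.

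By the test used, all 3 knockouts had less RNA for Vim and for 2 of the 3 claudin genes, Hmgn1-/- and double-knockout mESCs had more Cdh1 RNA, and none had a change of Snai1, Zeb1 or Zeb2 against WT mESCs that passed. For Snai1, Cdh2 and Epcam in Hmgn1-/- mESCs, Cdh1 in Hmgn2-/- mESCs and Cdh2 in the double knockout, whether the call is made depends on the fit chosen. The Hmgn2-/- calls of Cldn4, Cldn6 and Vim are each lost on leaving out certain single libraries. A full EMT program, with lower Cdh1 and higher Cdh2, Vim and Zeb or Snail RNA, was not seen in any knockout. The measurements are RNA levels of 1 line of each genotype, and protein, junctions and cell shape were not analysed here.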

How the data were processed

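Poly-A RNA of 12 mESC libraries, 3 each of 4 genotypes, was sequenced in paired-end mode and aligned to mm10 with STAR by the authors, who deposited unnormalized counts per gene. The counting program, annotation and use of strand are not given in the sources used here. The 10 genes were taken by symbol. They and the gene lists were chosen with earlier results of these data known.

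In R 4.3.3, edgeR 4.0.16 (with limma 3.58.1) fitted each pair of genotypes over its 6 libraries after TMM scaling and the default filterByExpr filter. Its quasi-likelihood test gave log2 FC, and p was adjusted by the Benjamini-Hochberg method over all genes tested. A gene was called at adjusted p under 0.01, and past the fold limit at a log2 FC of at least 1 in size as well. Standard errors are log2 FC divided by the square root of F, and intervals are 95%. Departure from additivity was a contrast in a fit of all 12 libraries. Genes named outside the 10 passed on a list, were the most abundant of it or lay nearest to Cldn4. Libraries held 17337908 to 31448468 counts. Standard errors of the 10 genes against WT mESCs ran from 0.0518 (Cdh1 in the double knockout) to 0.38 (Zeb2 in Hmgn2-/- mESCs). The steps were tested on simulated data.

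Lists were read for adherens, tight-junction and desmosome genes, EMT transcription factors, corepressors, epithelial, mesenchymal and TGF-β genes, the cadherin and claudin families, and markers of pluripotent, extraembryonic endoderm, fibroblast, trophoblast, primitive-streak and neural cells. Alternatives were DESeq2 1.42.0, RLE scaling, a looser filter (1 count in all), a stricter filter (10 counts in each library), a fit of all 12 libraries, replicate number as a block, omission of each library, no fold limit, adjusted p under 0.05, and CPM from library totals. Residuals of same-numbered libraries were compared to see whether numbers pair libraries. No column of the 4 tables was left out.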

Additional observations from a re-analysis of the deposited data

Results flagged for a closer look

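The change that went with Hmgn1 loss differed between Hmgn2-/- and WT mESCs for 2 of the 10 genes, by edgeR's test of the difference at adjusted p under 0.01. Of all 14323 genes tested, 6.32% were called by this rule. The difference was 1.235 log2 units for Snai1 and 0.78 log2 units for Vim. The Snai1 call was lost in 7 of 12 omissions of a library (edgeR adjusted p up to 0.0128), and the Vim call in 0 of 12.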

How the results depend on the processing

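The results were recomputed under the alternatives listed with the methods. Of 1493 alternative log2 FC values of members and named genes, 1387 kept their side of adjusted p 0.01, 82 lost and 24 gained the call and 0 reversed. Of the 1387, 15 crossed the fold limit (Cldn4, Cldn6 and Grhl2) and 30 had a change of sign without passing in either fit. Of 40 levels under CPM from library totals, 1 moved by over 1 SD, Vim in Hmgn2-/- mESCs (102.1 to 101). The cause was not tested where a call changed, except for the limits themselves, which change counts by construction.

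Without the fold limit, the members called were 4, 3 and 5 in Hmgn1-/-, Hmgn2-/- and double-knockout mESCs against WT mESCs and 1 in the double knockout against Hmgn1-/- mESCs. All genes called were then 2412, 1400 and 2544 against WT mESCs, 48 between the single knockouts and 150 in the double knockout against Hmgn1-/- mESCs. Cldn6 joined Cldn4 past the fold limit in the double knockout, making 2, with all 12 libraries in a fit (log2 FC −1) and with at least 10 counts in every library (−1.002). In the double knockout against Hmgn2-/- mESCs, 6 genes of all were called, and 29 by DESeq2, 18 with all 12 libraries in a fit, 21 with no filter beyond 1 count and 24 at adjusted p under 0.05. With no filter, 3 members passed in the double knockout against Hmgn1-/- mESCs, with Cldn4 and Snai1 added. Snai1 in Hmgn1-/- mESCs passed with all 12 libraries in a fit and under either other filter. Cdh1 in Hmgn2-/- mESCs and Cdh2 in the double knockout passed by DESeq2 and with all 12 libraries in a fit, Cdh2 also with no filter, and the Cdh1 departure from additivity passed by DESeq2.

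With the replicate number as a replicate block, 7 members passed in Hmgn1-/- mESCs (Cdh2, adjusted p 0.00586, Epcam, 0.00896, and Snai1, 0.00718, were added, with 24.4% of all genes called), 4 in the double knockout against Hmgn1-/- mESCs (Cldn4, 9.45e-06, Cldn6, 0.00264, and Snai1, 0.00557, added, 2.98% of all genes), 1 against Hmgn2-/- mESCs (Cldn4, 0.000548, 0.557% of all genes) and 4 in additivity (Cdh1, 0.00969, and Cldn6, 0.00426, added, 10.2% of all genes). All genes past the fold limit in the double knockout against Hmgn2-/- mESCs were 32. Of 18 pairs of same-numbered libraries, 12 had residual correlations over 0.1, and of 36 other pairs 0 did. In 31 of 36 cases a library's best match in another genotype had its own number. Only the double knockout against WT mESCs had all 3 of its pairs over 0.1, and the block changed no member call there.

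On leaving out each library in turn, the members past the fold limit in the double knockout against WT mESCs were 0 to 2 (0 without WT replicate 3 or double-knockout replicate 1, 2 with Cldn6 added without WT replicates 1 or 2 or double-knockout replicate 3). Members passing in Hmgn2-/- mESCs were 0 to 4 (0 without WT replicate 3 or Hmgn2-/- replicate 2, 1 without WT replicate 2, 4 without Hmgn2-/- replicate 3). In the double knockout against Hmgn1-/- mESCs they were 0 to 1, and in additivity 1 to 3, with 0 to 1 past the fold limit. All genes called in the double knockout against Hmgn2-/- mESCs were 1 to 12.

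Among list genes, calls were lost in Hmgn1-/- mESCs for Grhl2 at the fold limit without WT replicate 2 (−0.98), WT replicate 3 (−0.91) or Hmgn1-/- replicate 1 (−0.96), for Tgfbr3 without WT replicate 2 (adjusted p 0.0213) or Hmgn1-/- replicates 1 (0.0178), 2 (0.0211) or 3 (0.0154), and for Cdh23 without WT replicates 2 (0.014) or 3 (0.018) or Hmgn1-/- replicates 2 (0.0194) or 3 (0.0186). In Hmgn2-/- mESCs they were lost for Axl without Hmgn2-/- replicate 2 (0.0129) and for Cdh9 without WT replicates 2 (0.0165) or 3 (0.0231) or Hmgn2-/- replicates 1 (0.0122) or 2 (0.0106). They were lost in the double knockout for Cdh9 without WT replicate 3 (0.0121) or double-knockout replicate 3 (0.0132), for Twist2 without WT replicates 2 (0.0199) or 3 (0.0255) or double-knockout replicates 2 (0.0248) or 3 (0.036), for Cdh13 without WT replicate 3 (0.0123) or double-knockout replicate 1 (0.0166), and for Cdh6 without WT replicates 2 (0.0102) or 3 (0.0181) or double-knockout replicates 2 (0.0158) or 3 (0.0186).

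Each genotype is 1 line with 3 replicates, so differences between lines cannot be told apart from those between genotypes. RNA was measured in bulk, and cell types cannot be told apart. Comparison of the claudin protein sequences was not run. The counting program and its use of strand are not given in the sources used here, which matters most for Zeb2.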
